A study of Mus musculus with 21 samples.

Results

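Mature microRNAs (miRNAs) of whole mouse kidney were compared between day 14 and day 28 after folic acid, with 3 libraries at each day. The 6 libraries were chosen by their labelled day, out of 21 in the series, and no measured value entered the choice. The mice were male BALB/c, labelled as 12 weeks old, and folic acid was injected at 250 mg/kg in sodium bicarbonate, though for day 0 the labels do not say whether the mice had been injected. Kidneys were taken at 7 times from day 0 to day 28, and small RNA libraries were sequenced from total RNA. Day 14 and day 28 are therefore 2 points of 1 course with the same strain, sex, agent and dose, and the labels name no group without folic acid at either day. Time since injection, age at collection and day of collection cannot be told apart. Of 1125 miRNAs in the table, 431 passed the low-count filter and were tested, and a step from day 7 to day 14 and the levels at day 0 serve as comparisons. Nothing in the labels states that libraries of 1 day stem from different mice, and the p-values thus reflect library-to-library spread, which may be technical.

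A miRNA is a short RNA that pairs through its seed, bases 2 to 8 from the 5′ end, with messenger RNAs and lowers their stability and translation. A high dose of folic acid crystallises in the tubules and injures their epithelium, and the acute phase is followed by interstitial inflammation and a variable degree of scarring. In the kidney, miR-192, miR-194 and miR-215 and the miR-30 family are known from the tubular epithelium, miR-21 and miR-214 from injured and scarring tissue, and miR-142 and miR-223 from blood-derived cells.

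The 6 libraries held 3115403 to 5719649 reads assigned to miRNAs, against 2875675 to 7110546 over all 21. Levels are given as TMM-scaled CPM, which are miRNA reads brought to a common library total and scaled between libraries, and CPM below means this unit. The kidney-enriched list stood at 330047 to 418123 CPM at day 14 and 407416 to 440468 CPM at day 28 (lowest to highest library). The low end at day 14 was replicate 3, and replicates 1 and 2, at 414503 and 418123 CPM, lay within the day 28 range. The list members miR-10a-5p, miR-10b-5p and miR-192-5p were among the 10 most abundant miRNAs of these days. On the first principal component of the 431 miRNAs, which held 41.1% of the variance, day 28 lay at -3.72, -5.39 and -2.66, between day 0 at -10.6 to -10.2 and day 14. Replicate 3 of day 14 stood apart from its group, at 6.87 against 1.71 and 1.20 for the other two, within the day 7 range of 5.35 to 8.49. Its share in each result was measured by leaving it out. The calls between day 14 and day 28 that held without it are named below, and all others ended. Values without it are printed for only part of the miRNAs and lists, so a missing value does not mean that a result held.

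**Figure D1:**
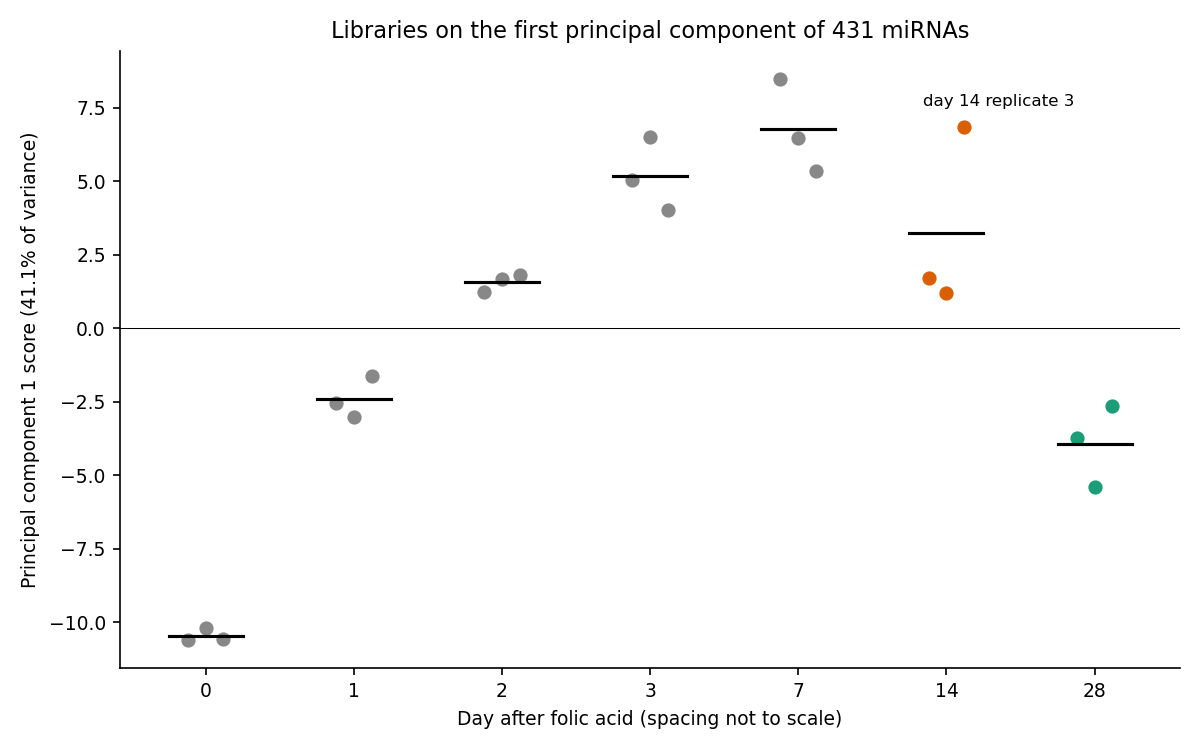
Score of each of the 21 libraries (points) on the first principal component of log2(CPM + 1) over 431 miRNAs, by day after folic acid; horizontal bars are the means of 3 libraries. Day 28 (green) lies between day 0 and day 14 (orange), and replicate 3 of day 14 lies at 6.87, among the day 7 libraries.

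The mature sequences of the miRNAs on which the comparison turns are shown with the seed in capitals, from RefSeq on GRCm38.p6, with U as in RNA. Pairs with the same seed are set next to each other because in some both members changed and in others 1 did. The first set was called lower at day 28, with miR-146a-5p and let-7g-5p, which were not called, beside their seed partners.
miR-132-3p: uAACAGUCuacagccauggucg
miR-212-3p: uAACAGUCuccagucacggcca
miR-146b-5p: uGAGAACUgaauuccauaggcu
miR-146a-5p: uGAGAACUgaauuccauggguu
miR-21-5p: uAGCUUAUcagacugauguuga
miR-19a-3p: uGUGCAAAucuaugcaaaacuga
miR-19b-3p: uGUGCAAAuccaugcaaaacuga
let-7i-5p: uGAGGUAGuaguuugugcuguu
let-7g-5p: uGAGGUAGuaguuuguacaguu
miR-142-3p: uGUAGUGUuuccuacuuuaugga
miR-214-3p: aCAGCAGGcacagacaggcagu
The second set was called higher at day 28, with miR-103-3p, which was not called, beside its seed partner miR-107-3p.
miR-192-5p: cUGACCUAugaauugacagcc
miR-215-5p: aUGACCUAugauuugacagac
miR-30a-5p: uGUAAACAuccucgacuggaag
miR-29a-3p: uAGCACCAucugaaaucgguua
miR-29c-3p: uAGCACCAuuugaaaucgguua
miR-107-3p: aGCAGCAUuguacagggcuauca
miR-103-3p: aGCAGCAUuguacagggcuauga
miR-1199-5p: uCUGAGUCccggucgcgcgg

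Between day 14 and day 28, miR-132-3p, miR-146b-5p and miR-21-5p, all linked to injury and inflammation, fell by 0.94 to 1.17 on the log2 scale. The tubular miRNAs miR-192-5p and miR-30a-5p rose by 0.49 and 0.39, and both calls ended without replicate 3 of day 14. Of 10 tested kidney-enriched miRNAs, 2 were higher and 1 was lower, with a median of 0.13. Of 431 miRNAs tested, 53 passed an adjusted p of 0.05 (12.3%), of which 33 were lower at day 28 (7.66%) and 20 were higher (4.64%). At an unadjusted p under 0.05 the count was 135. In all, 151 miRNAs (35%) had day 28 libraries that did not overlap the day 14 libraries, 81 lower (18.8%) and 70 higher (16.2%). The median change over all tested miRNAs was -0.01 on the log2(CPM + 1) scale, on which all changes below are given. Called falls had a median change of -0.87 and a median level of 19.6 CPM, and 11 of them had a mean under 10 CPM. Called rises had a median change of 0.41 and a median level of 1361 CPM, and 12 of the 20 had a mean of at least 1000 CPM, against 2 of the 33 falls.

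The split between higher and lower calls depended on how libraries were scaled. Higher calls were 37.7% of the calls with TMM, 5.88% with upper-quartile factors (3 higher, 48 lower) and 8.93% with library totals alone (5 higher, 51 lower). Of the 431 miRNAs, 0.696% were higher and 11.1% lower with the first and 1.16% and 11.8% with the second. With library totals the median over all miRNAs lay 0.12 lower on the log2 scale than with TMM. All 33 falls were called with both of these scalings. Of the 20 rises, miR-1199-5p, miR-29c-3p and miR-3073b-3p were called with both, and all 20 had positive values in each of the 20 alternatives run. Single libraries also decided many calls. Without replicate 3 of day 14, 2 of the 20 rises and 11 of the 33 falls were called, with no other calls (0.464% and 2.55% of the 431). These were miR-1199-5p and miR-3073b-3p as rises, and miR-132-3p, miR-146b-5p, miR-21-5p, miR-19a-3p, miR-375-3p, let-7i-5p, miR-130b-3p, miR-212-5p, miR-223-5p, miR-677-5p and miR-93-3p as falls. Without replicate 2 of day 28 the rise called was miR-1199-5p, and the 11 falls were the same with miR-21-3p in place of miR-93-3p. Every other call given below ended without each of these 2 libraries, apart from miR-93-3p, miR-21-3p and miR-3073b-3p, whose calls ended without 1 of them. The 33 falls had negative values in every alternative that tested them, and their median change was -0.76 without the first of these libraries and -0.74 without the second. The median of the 20 rises was 0.30 and 0.36.

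**Figure D2:**
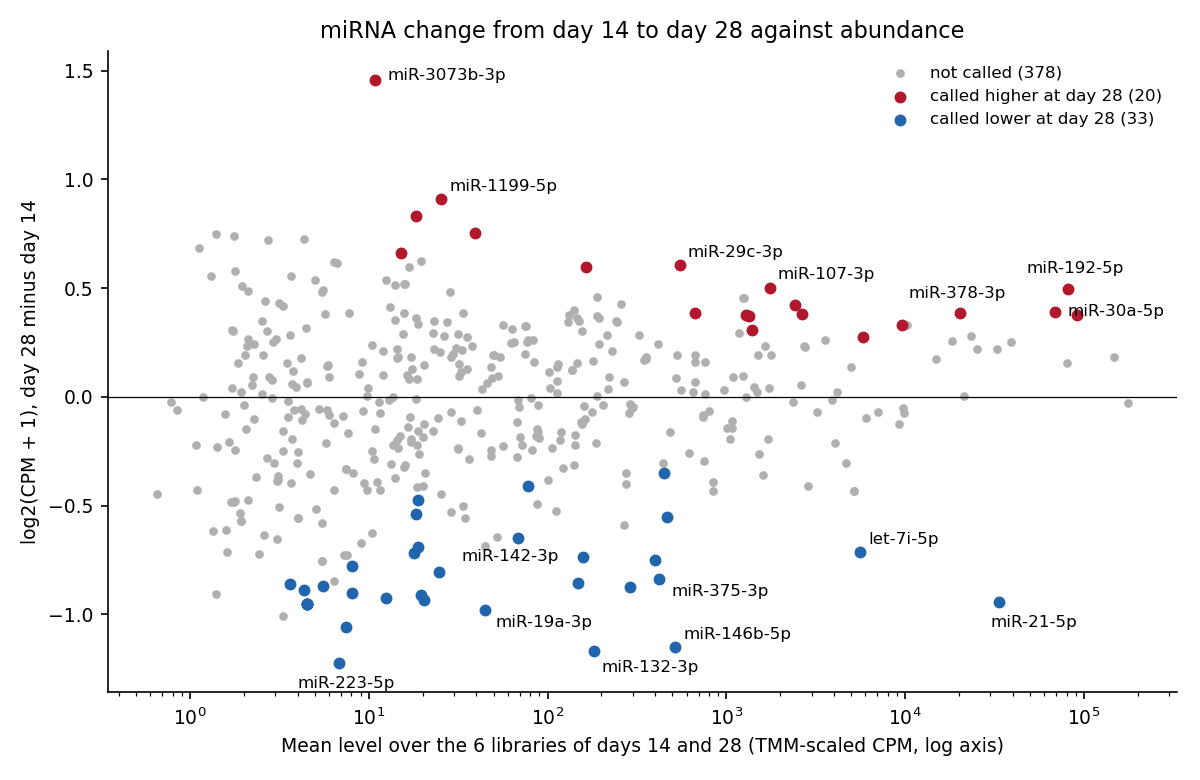
Change from day 14 to day 28 (vertical axis, log2(CPM + 1), day 28 minus day 14) against mean level over the 6 libraries (horizontal log axis, TMM-scaled CPM) for 431 miRNAs (points). The 33 called falls (blue) reach down to -1.23 and lie mostly at low to middle levels, while 12 of the 20 called rises (red) have a mean of at least 1000 CPM, with changes of at most 0.50.

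The miR-132/miR-212 pair, which is transcribed from 1 locus and responds to the transcription factor CREB, showed the largest fall among miRNAs that averaged 10 CPM or more. miR-132-3p stood at 225, 178 and 351 CPM at day 14 and 95.5, 84.5 and 151 CPM at day 28. The groups did not overlap, although replicate 3 was the highest library of each day. The difference was a log2 change of -1.17 (SE 0.20, adjusted p = 0.00114), a ratio of 0.444, and -0.90 without replicate 3 of day 14 (adjusted p = 0.00866). miR-212-3p, with the same seed, stood at 18.9, 19.6 and 39.8 CPM at day 14 and 10.3, 10.5 and 18.3 CPM at day 28. Its difference was a log2 change of -0.91 (SE 0.24, adjusted p = 0.0198), but replicate 3 of day 14 held about as much as the other two together, and without it the change was -0.57 with an adjusted p of 0.125. The other arm, miR-212-5p, was scarce and lower in every day 28 library, going from 11.2, 9.45 and 10.4 CPM to 3.85, 3.57 and 6.28 CPM (log2 change -1.06, adjusted p = 0.00524). The 4 mature miRNAs of this locus lie at chr11:75173403-75173744 on the plus strand of GRCm38.p6, within the annotated non-coding gene 1700016P03Rik. Of the 4, miR-132-5p had a change of -0.73 and did not pass the test (adjusted p = 0.0732).

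miR-146b-5p, known as a feedback inhibitor of signalling from Toll-like receptors to NF-kB, fell strongly. It stood at 737, 683 and 715 CPM at day 14 and 377, 289 and 299 CPM at day 28, with close values within each day. The difference was a log2 change of -1.15 (SE 0.20, adjusted p = 0.00164) and was -1.15 without replicate 3 of day 14. miR-146a-5p shares the seed shown above and comes from another chromosome. Its libraries held 596, 574 and 369.8 CPM at day 14 and 531, 435 and 393 CPM at day 28, and they overlapped. The change of -0.16 did not pass the test (adjusted p = 0.634, 95% interval -0.60 to 0.28). It became -0.38 without replicate 3 of day 14, the lowest library of that day (adjusted p = 0.313). The difference between the changes of these seed partners was not tested.

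miR-21-5p, a miRNA that is induced in injured kidneys and promotes scarring in mice, was the most abundant miRNA to fall. Its libraries held 41075, 34172 and 58201 CPM at day 14 and 21226, 20865 and 25999 CPM at day 28, with no overlap and with replicate 3 highest at day 14. The difference was a log2 change of -0.94 (SE 0.15, adjusted p = 0.00114), and -0.73 without that library (adjusted p = 0.00866). As a share of miRNA reads, miR-21-5p held 4.42% ± 1.58 at day 14 and 2.04% ± 0.307 at day 28 (mean ± SD, n = 3), against 7.76% ± 0.58 at day 7 and 1.4% ± 0.151 at day 0. The opposite arm, miR-21-3p, stood at 343, 267 and 529 CPM at day 14 and 177, 196 and 225 CPM at day 28. It fell by 0.88 on the log2 scale (adjusted p = 0.00802), and the adjusted p was 0.0616 without replicate 3 of day 14.

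In a list of 14 tested miRNAs associated with kidney injury and fibrosis, 8 were lower and 0 were higher, against 7.66% and 4.64% of all tested miRNAs, and 6 did not pass. All 14 had negative values, with a median of -0.64 against -0.01 over all tested miRNAs. The list was drawn up with results of these libraries known and is not independent evidence of its direction. The 8 were miR-21-5p, miR-21-3p, miR-132-3p, miR-212-3p, miR-146b-5p, miR-214-3p, miR-199a-5p and miR-18a-5p. Among those that did not pass, miR-31-5p stood at 170.4, 99.8 and 192 CPM at day 14 and 126, 125 and 144 CPM at day 28. These groups overlapped, and the change was -0.18 (adjusted p = 0.538, 95% interval -0.58 to 0.22). With replicate 3 of day 14 left out, miR-31-5p had 0.01, and of the 14 miRNAs 3 were lower, 0 higher and 13 negative, with a median of -0.49. Of 8 tested miRNAs known to be induced through NF-kB, 4 were lower, all of them also in the injury list, and the median was -0.82. Among those not called, miR-9-5p had a positive value of 0.34 and miR-155-5p had -0.05. Without replicate 3 of day 14, 3 of the 8 were lower, against 2.55% of all tested miRNAs, and the median was -0.51. Replicate 3 of day 14 had the highest summed level of the injury list at day 14, with 76950.5 CPM against 54151 and 45583 CPM, and at day 28 the sum ran over 29625 to 36610.2 CPM.

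Of 6 mesenchymal miRNAs, 2 were lower, against 7.66% of all tested miRNAs. miR-199 and miR-214, known from fibroblasts and pericytes, are made in part from the non-coding gene Dnm3os, in which 4 of them lie at chr1:162217844-162223459 on the plus strand of GRCm38.p6. miR-214-3p stood at 148, 140.0 and 297 CPM at day 14 and 99.4, 85.7 and 119.5 CPM at day 28. Replicate 3 of day 14 was about as high as the other two together, and the day 28 libraries lay below all 3. The difference was a log2 change of -0.86 (SE 0.21, adjusted p = 0.0132), and -0.51 without that library, where it no longer passed (adjusted p = 0.0704). miR-199a-5p, which also has a copy on chromosome 9, stood at 535, 484 and 643 CPM at day 14 and 408, 334 and 385 CPM at day 28. Its change was -0.55 (SE 0.15, adjusted p = 0.0226) and -0.44 without replicate 3 of day 14, where it did not pass (adjusted p = 0.119). For miR-199a-3p the reads equal those of miR-199b-3p in every library, so the 2 cannot be separated. They stood at 5345, 4674 and 7862 CPM at day 14 and 4695, 3747 and 4551 CPM at day 28 and overlapped (change -0.43, adjusted p = 0.0587). Their change was -0.21 without replicate 3 of day 14 (adjusted p = 0.313). The mesenchymal list thus holds 5 distinct measurements in 6 rows, of which 2 were lower and 0 higher, and the median of the rows was -0.53. With the same library left out, 0 were lower and the median was -0.38. With upper-quartile factors or library totals 4 of the 5 were lower, scalings with which 11.1% and 11.8% of all 431 miRNAs were lower. All of them are also in the injury list, of which 10 of 13 distinct measurements were lower with either scaling.

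Of 11 leukocyte miRNAs, 3 were lower. miR-142-3p, which is restricted to blood-derived cells, stood at 201, 199 and 189 CPM at day 14 and 112, 107 and 135 CPM at day 28. The day 14 libraries lay close together, and replicate 3 was the lowest of them. The difference was a log2 change of -0.73 (SE 0.19, adjusted p = 0.0168), and -0.76 without replicate 3 of day 14 (adjusted p = 0.0576). The other arm of that hairpin, miR-142-5p, stood at 1878, 1522 and 1569.8 CPM at day 14 and 1415, 1303 and 1405 CPM at day 28 and did not pass (change -0.26, adjusted p = 0.225). miR-223-5p, from a myeloid miRNA gene, was scarce and fell from 9.25, 10.5 and 10.1 CPM to 3.37, 3.06 and 4.76 CPM (log2 change -1.23, adjusted p = 0.0046). Its more abundant arm miR-223-3p stood at 137, 101 and 158 CPM at day 14 and 84.9, 81.7 and 105 CPM at day 28, overlapped and did not pass (adjusted p = 0.0961). miR-342-5p, which averaged 3.63 CPM, fell by 0.86 (adjusted p = 0.041). Its more abundant arm miR-342-3p did not pass (change -0.49, adjusted p = 0.0687). The leukocyte list thus had 3 of 11 lower, against 7.66% of all tested miRNAs, and 0 higher, with a median of -0.49. Its 1 positive value was that of miR-150-5p (0.17, and -0.005 without replicate 3 of day 14). With upper-quartile factors or library totals 5 of 11 were lower, against 11.1% and 11.8% of all. It was 1 of 11 without replicate 3 of day 14, against 2.55% of all, with a median of -0.38. The list summed to 2779 to 3409 CPM at day 14, 2451 to 2669.8 CPM at day 28 and 1156 to 1579 CPM at day 0. Fewer cells of a type and less of its miRNA per cell cannot be told apart in these whole-kidney libraries.

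The miR-17/miR-92 clusters, which are driven by MYC and known from proliferating cells, had calls in both directions. miR-19a-3p stood at 48.5, 70.2 and 61.2 CPM at day 14 and 29.8, 25.8 and 33.5 CPM at day 28, with no overlap and a log2 change of -0.98 (SE 0.21, adjusted p = 0.00545). miR-19b-3p, with the same seed, stood at 428, 560.3 and 518 CPM at day 14 and 297, 279 and 313 CPM at day 28 and fell by 0.75 (adjusted p = 0.0324). miR-18a-5p fell by 0.72 (adjusted p = 0.0226). Both miR-19a and miR-18a lie in Mir17hg at chr14:115043684-115044496 on the plus strand of GRCm38.p6, where 3 of 9 tested mature miRNAs were lower. Other members of that locus did not pass, among them miR-92a-3p with a change of -0.10 (adjusted p = 0.517) and miR-17-5p with -0.31 (adjusted p = 0.119). In the related locus at chrX:52741697-52742563 on the minus strand, miR-363-3p was higher, with 13.6, 17.9 and 8.01 CPM at day 14 and 23.8, 30.4 and 16.9 CPM at day 28. These libraries overlapped, and the call (log2 change 0.83, adjusted p = 0.0226) ended without replicate 3 of day 14 (adjusted p = 0.173). Its neighbours miR-20b-5p and miR-106a-5p had values of 0.54 and 0.39 and did not pass (adjusted p = 0.207 and 0.225). Without that library the values of miR-363-3p, miR-20b-5p and miR-106a-5p were 0.54, 0.12 and 0.22. miR-19b-3p and miR-92a-3p are encoded at both loci. Over the list, 3 of 14 were lower and 1 was higher, against 7.66% and 4.64% of all tested miRNAs, with a median of -0.21. Without replicate 3 of day 14, 1 was lower and 0 were higher, against 2.55% and 0.464% of all, with a median of -0.12. The list leaves out other tested arms of its hairpins. Of these, miR-93-3p and miR-92a-5p were called lower with all libraries (-0.78 and -0.48), and miR-18a-3p, miR-20a-3p and miR-25-5p were not called. The fall of miR-93-3p was also called without that library.

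Several further miRNAs outside these lists fell. let-7i-5p, 1 of 9 let-7 family members tested, stood at 6348, 5366 and 9289.8 CPM at day 14 and 4137, 3753 and 4613 CPM at day 28. It did not overlap and had a log2 change of -0.71 (SE 0.14, adjusted p = 0.00424), with -0.49 without replicate 3 of day 14 (adjusted p = 0.0153). The other 8 members, which share its seed, were not called and ran from -0.29 to 0.14. miR-375-3p, best known from pancreatic islets, stood at 581, 447 and 598 CPM at day 14 and 287, 301 and 314 CPM at day 28. Its change of -0.84 (SE 0.14, adjusted p = 0.00114) was -0.76 without replicate 3 of day 14.

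Both arms of 2 further hairpins fell. miR-130b-3p stood at 33.7, 28.3 and 32.7 CPM at day 14 and 16.4, 16.8 and 19.8 CPM at day 28, a change of -0.80 (adjusted p = 0.00668), and miR-130b-5p changed by -0.87 (adjusted p = 0.0226). miR-802-5p stood at 80.2, 71.8 and 100.3 CPM at day 14 and 52.7, 47.5 and 58.8 CPM at day 28. It fell by 0.65 (adjusted p = 0.0137), and miR-802-3p fell by 0.69 (adjusted p = 0.0108). Of 150 hairpins with both arms tested, 32 had a call and 4 (miR-21, miR-212, miR-130b and miR-802) had both arms called in the same direction. Over all tested miRNAs 12.3% were called, and a hairpin has 2 arms that can be called, so the 32 does not single out hairpins.

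miR-204-5p, a miRNA enriched in kidney, went against the other kidney-enriched calls. It stood at 528, 446 and 538 CPM at day 14 and 387, 396 and 397 CPM at day 28 and fell by 0.35 (adjusted p = 0.0226), a call that ended without replicate 3 of day 14 (adjusted p = 0.119). miR-96-5p of the miR-183 cluster fell by 0.93 (adjusted p = 0.0478), the only one of 4 tested members called, against 7.66% of all tested miRNAs called lower. All 4 had negative values, and 3 had day 28 libraries below day 14 without overlap, against 18.8% of all. Without replicate 3 of day 14, 3 of the 4 were negative and 0 were called. miR-298-5p, miR-677-5p, miR-93-3p, miR-138-5p, miR-15b-5p and miR-92a-5p were lower by 0.92, 0.90, 0.78, 0.54, 0.41 and 0.48 on the log2 scale. The remaining 5 falls were rows of miR-466, at 2.04 to 7.08 CPM in all 6 libraries. Of these, miR-466b-3p, miR-466c-3p, miR-466e-3p and miR-466p-3p hold identical reads and count as 1 measurement.

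**Figure D3:**
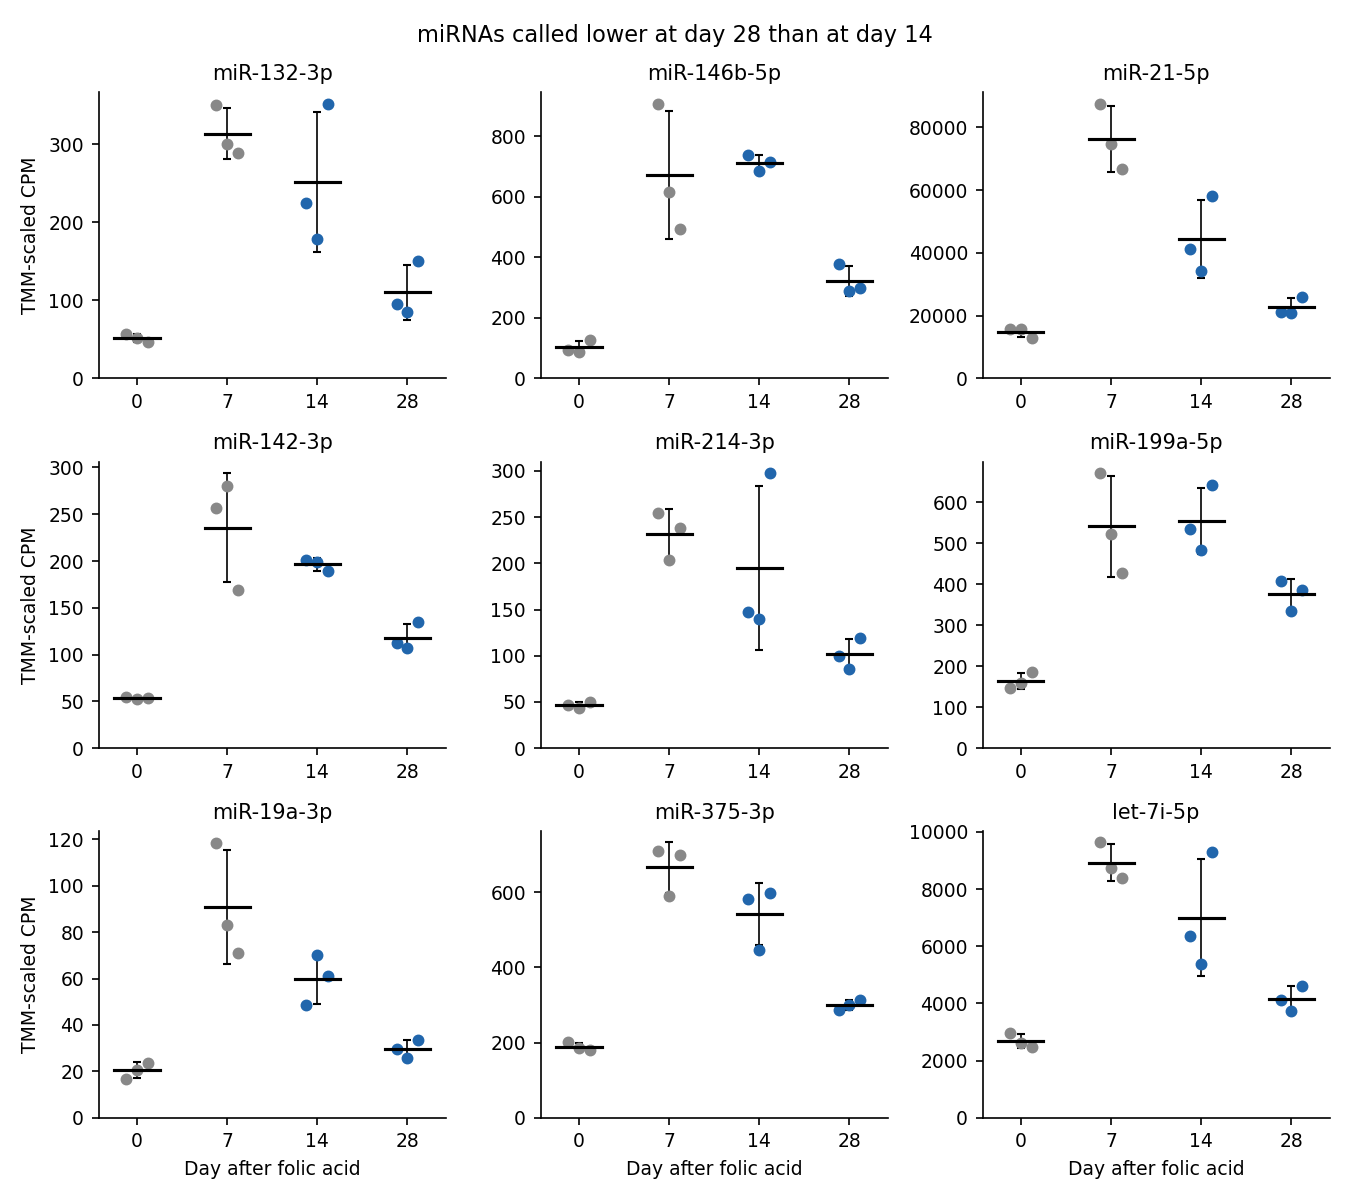
Levels (TMM-scaled CPM, linear axes from 0) of 9 miRNAs called lower at day 28, in each library (points) at days 0, 7, 14 and 28; bars and whiskers are mean ± SD of 3 libraries, with days 14 and 28 in blue. In each panel the 3 day 28 libraries lie below the 3 day 14 libraries, and for miR-132-3p, miR-21-5p, miR-214-3p and let-7i-5p replicate 3 is the highest at day 14.

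Tubular miRNAs were among the most abundant rises. miR-192-5p, which is enriched in kidney, liver and gut, stood at 75279, 72095 and 55529 CPM at day 14 and 90859, 106443 and 86959 CPM at day 28. All day 28 libraries lay above day 14, and replicate 3 was lowest at day 14. The difference was a log2 change of 0.49 (SE 0.12, adjusted p = 0.0127), a ratio of 1.41. As a share of miRNA reads it went from 6.58% ± 0.564 to 8.47% ± 0.707 (mean ± SD, n = 3), against 11.4% ± 0.887 at day 0. Without replicate 3 of day 14 the change was 0.36 (adjusted p = 0.0704), and without replicate 2 of day 28 it was 0.41 (adjusted p = 0.104), so each of these libraries decided the call. miR-215-5p, with the same seed and far fewer reads, stood at 12.8, 10.8 and 10.6 CPM at day 14 and 18.3, 23.7 and 14.7 CPM at day 28. Its change was 0.66 (SE 0.20, adjusted p = 0.0301), and 0.62 and 0.49 without each of the same libraries in turn (adjusted p = 0.119 and 0.193). miR-194-2-5p, from a hairpin next to miR-192, stood at 2426, 2344 and 1490.2 CPM at day 14 and 2639, 3148 and 2457 CPM at day 28 (change 0.42, adjusted p = 0.0464), and its change was 0.20 without replicate 3 of day 14. Of the kidney-enriched list, 2 of 10 were higher and 1 was lower, against 4.64% and 7.66% of all tested miRNAs, and the median was 0.13. The list does not hold miR-194-2-5p: it names the arm as miR-194-5p, which matched no row. Without replicate 3 of day 14, 0 of the 10 were called and the median was -0.02. With upper-quartile factors or library totals 0 were higher, 1 was lower and the median was 0.04 or 0.01.

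The miR-30 family, abundant in tubules and podocytes, had positive values in all 8 tested members of its list, with a median of 0.27. The list leaves out the tested arms miR-30b-3p and miR-30c-3p, whose values without replicate 3 of day 14 were 3.97e-05 and 0.21. Of the 8, 2 passed the test, against 4.64% of all tested miRNAs called higher. All 8 were also positive with upper-quartile factors and library totals, where 0 and 1 passed. miR-30a-5p stood at 65368, 65868 and 48824 CPM at day 14 and 74659, 82373 and 76756 CPM at day 28 and rose by 0.39 (SE 0.11, adjusted p = 0.0271). miR-30e-3p rose by 0.38 (adjusted p = 0.0486), and its change was 0.20 without replicate 3 of day 14 (adjusted p = 0.286). Summed over the list, day 14 held 130527, 131557 and 91548 CPM and day 28 held 141508, 149897 and 143910.0 CPM. The lowest of these was again replicate 3 of day 14. Without it miR-30a-5p changed by 0.25 (adjusted p = 0.175), and miR-30c-5p, which was not called at 0.17 with all libraries (adjusted p = 0.495), had a value of -0.07.

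The miR-29 family, which targets collagen messenger RNAs, and the miR-101 family also had positive values in all tested members of their lists. miR-29c-3p stood at 456, 479 and 369 CPM at day 14 and 641, 744 and 595 CPM at day 28, with no overlap and a log2 change of 0.61 (SE 0.14, adjusted p = 0.00949). It was among the rises called with TMM, upper-quartile factors and library totals, and its change was 0.49 without replicate 3 of day 14 (adjusted p = 0.0616). miR-29a-3p stood at 2399, 2324 and 2209 CPM at day 14 and 3029, 3281 and 2741 CPM at day 28 and rose by 0.38 (adjusted p = 0.0226). With the same seed, miR-29b-3p had 0.15 and did not pass (adjusted p = 0.465, 95% interval -0.13 to 0.44). In all, 2 of 5 members of the miR-29 list were higher, against 4.64% of all tested miRNAs, with a median of 0.29. In the miR-101 list, 1 of 4 was higher, miR-101a-3p with 0.33 (adjusted p = 0.0226), and the median was 0.31. Members of both lists were also positive with upper-quartile factors and library totals, with 1 of 5 and 0 of 4 higher, and without replicate 3 of day 14, with 0 higher. There miR-29b-3p had 0.09.

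miRNAs linked to epithelial identity and to metabolism followed. miR-200a-3p, of the family that maintains epithelial state by repressing Zeb genes, stood at 1251, 1229 and 1233 CPM at day 14 and 1573, 1566 and 1454 CPM at day 28 and rose by 0.31 (adjusted p = 0.0464). It was the 1 of 8 members called, against 4.64% of all tested miRNAs called higher. The family had 4 positive and 4 negative values (median 0.13). The miR-200a-3p call ended with upper-quartile factors, with library totals and without replicate 3 of day 14 (change 0.30, adjusted p = 0.119). miR-378-3p, encoded in the gene of the metabolic coactivator Ppargc1b, stood at 19207, 18793 and 14970.0 CPM at day 14 and 21358, 23697 and 23851 CPM at day 28. Its change was 0.39 (SE 0.10, adjusted p = 0.0226). miR-107-3p, encoded in the pantothenate kinase gene Pank1 at chr19:34820700-34820722 on the minus strand of GRCm38.p6, stood at 1654, 1648 and 1076 CPM at day 14 and 1829, 2257 and 2014 CPM at day 28 (change 0.50, adjusted p = 0.0226). Replicate 3 was the low library of day 14, and without it the change was 0.30 (adjusted p = 0.172). miR-103-3p, which shares its seed, stood at 2615, 2644 and 2462 CPM at day 14 and 2533, 2752 and 2724 CPM at day 28 and had a value of 0.05 (adjusted p = 0.696, 95% interval -0.13 to 0.23), which was 0.02 without that library and negative with upper-quartile factors (-0.04) and with library totals (-0.08).

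Among the remaining rises, miR-1199-5p was the one that was called in all 20 alternatives. It stood at 18.5, 18.5 and 14.6 CPM at day 14 and 26.9, 37.0 and 36.2 CPM at day 28, a change of 0.91 (SE 0.19, adjusted p = 0.0046), and 0.80 without replicate 3 of day 14. miR-3073b-3p had the largest rise, with 8.07, 8.77 and 1.41 CPM at day 14 and 16.6, 16.3 and 13.5 CPM at day 28. Its change of 1.46 (adjusted p = 0.00949) dropped to 0.80 without replicate 3 of day 14, the library at 1.41 CPM. miR-3968 and miR-187-3p rose by 0.75 and 0.60 (adjusted p = 0.0315 and 0.0464). miR-22-3p, the most abundant miRNA that rose, stood at 89852, 83208 and 66027 CPM at day 14 and 99512, 110629 and 97867 CPM at day 28 (change 0.38, adjusted p = 0.0164). Its change was 0.25 without replicate 3 of day 14 (adjusted p = 0.0725). The last rises, miR-203-3p, miR-151-5p and miR-26b-5p, had changes of 0.38, 0.37 and 0.27, and the day 14 and day 28 libraries of miR-203-3p overlapped. The change of miR-203-3p was 0.21 without replicate 3 of day 14 (adjusted p = 0.286). Of the 20 rises, 18 had libraries that did not overlap.

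**Figure D4:**
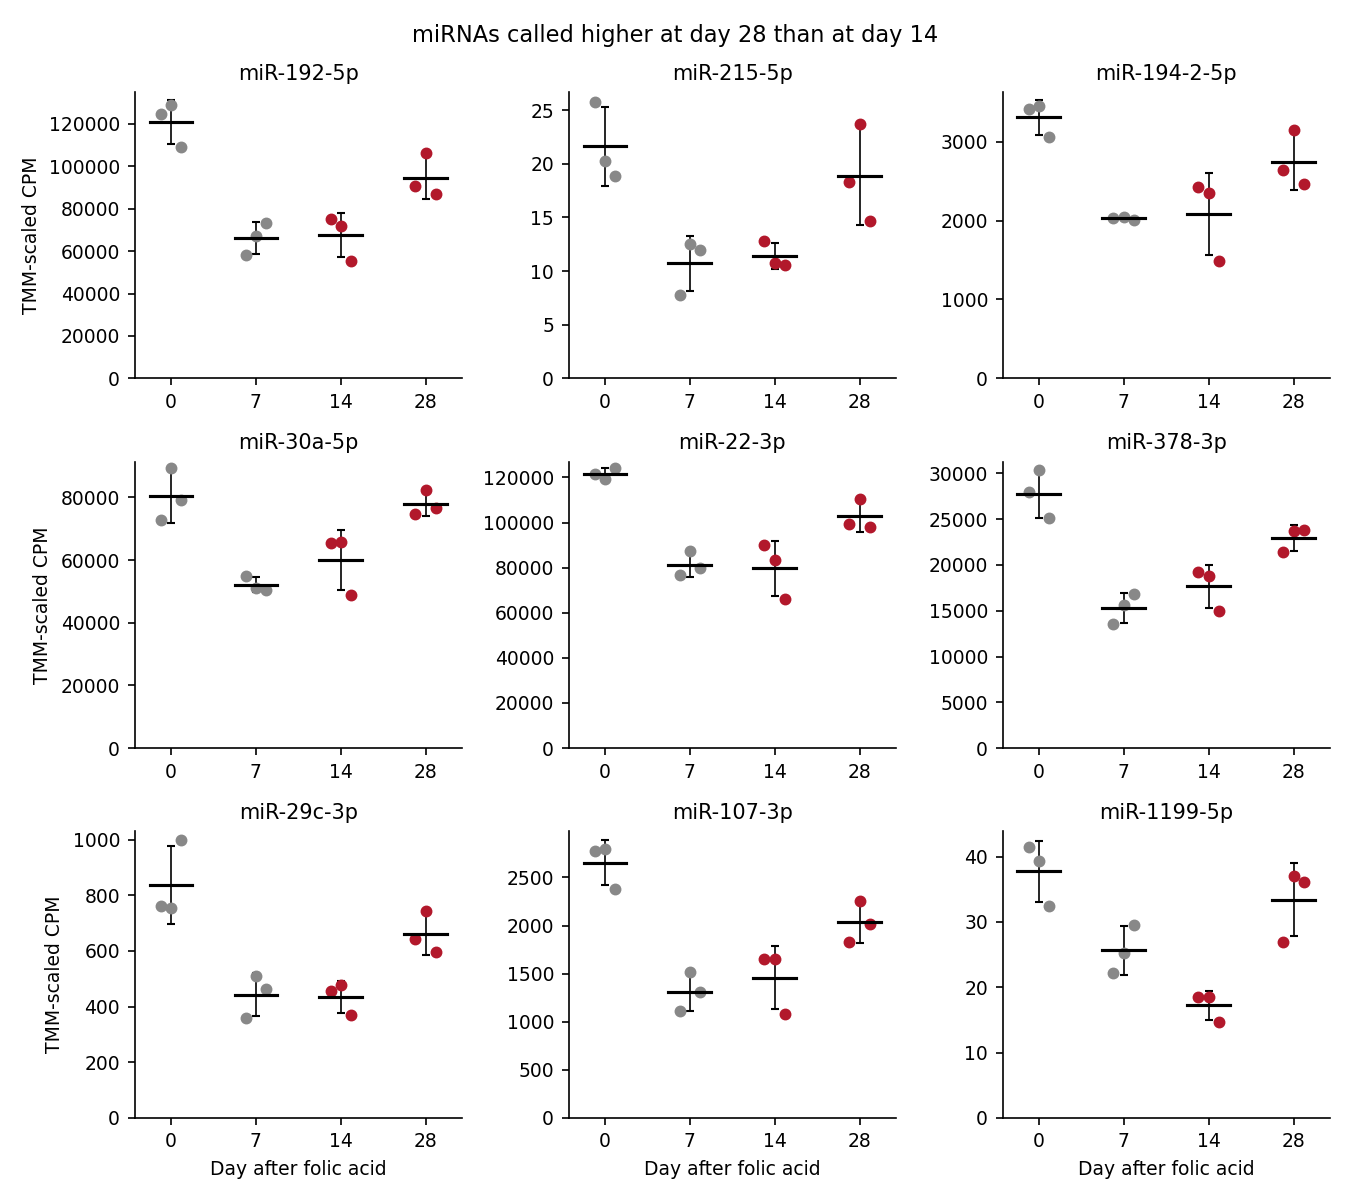
Levels (TMM-scaled CPM, linear axes from 0) of 9 miRNAs called higher at day 28, in each library (points) at days 0, 7, 14 and 28; bars and whiskers are mean ± SD of 3 libraries, with days 14 and 28 in red. In each panel the 3 day 28 libraries lie above the 3 day 14 libraries, and replicate 3 is the lowest library of day 14.

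The remaining lists held few calls. Of miRNAs known from smooth muscle, 0 of 4 passed, with a median of -0.03 (0.01 without replicate 3 of day 14). Each had day 28 libraries that did not overlap day 14, 2 above and 2 below, against 16.2% above and 18.8% below of all tested miRNAs. miR-143-3p, the most abundant of them, stood at 72585, 75195 and 79612 CPM at day 14 and 82381, 85196 and 85196 CPM at day 28. miR-143-3p and miR-145-3p had values of 0.15 and 0.37, and their opposite arms miR-143-5p and miR-145-5p had -0.22 and -0.44. Endothelial miR-126-3p and miR-126-5p had positive values of 0.23 and 0.33 that did not pass (adjusted p = 0.136 and 0.0573), and 0.08 and 0.19 without replicate 3 of day 14. Erythroid miRNAs, which report blood left in the tissue, had a median of 0.39 with 0 of 4 called, and 0.05 without replicate 3 of day 14. Their sum varied within a day, over 694 to 2755 CPM at day 14 and 1107 to 2084 CPM at day 28. That sum was lowest in replicate 3 at day 14 and in replicate 2 at day 28, and its part in the results above was not tested. The lists of the miR-34 family (5 tested, median -0.38), the miR-181 family (5, median 0.10), the miR-322/miR-503 cluster (7, median 0.19), the imprinted Dlk1-Dio3 cluster (13, median -0.24) and hypoxia (2, median 0.18) had 0 calls. Without replicate 3 of day 14 the median of the miR-322/miR-503 cluster was 0.07. The miR-181 list leaves out the tested arms miR-181a-3p and miR-181b-3p, which had -0.18 and -0.16 without that library. All 5 miR-34 miRNAs had day 28 libraries below day 14 without overlap, against 18.8% of all tested miRNAs. The miR-15/16 list had 1 of 5 lower, miR-15b-5p, the metabolic list had 1 of 4 higher, miR-378-3p, and the list of miRNAs from other organs had 1 of 2 lower, miR-375-3p. Over all tested miRNAs, 7.66% were lower and 4.64% were higher. With library totals the medians of the miR-15/16, miR-181, metabolic and miR-200 lists were below 0. The single striated muscle miRNA tested was not called.

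**Figure D5:**
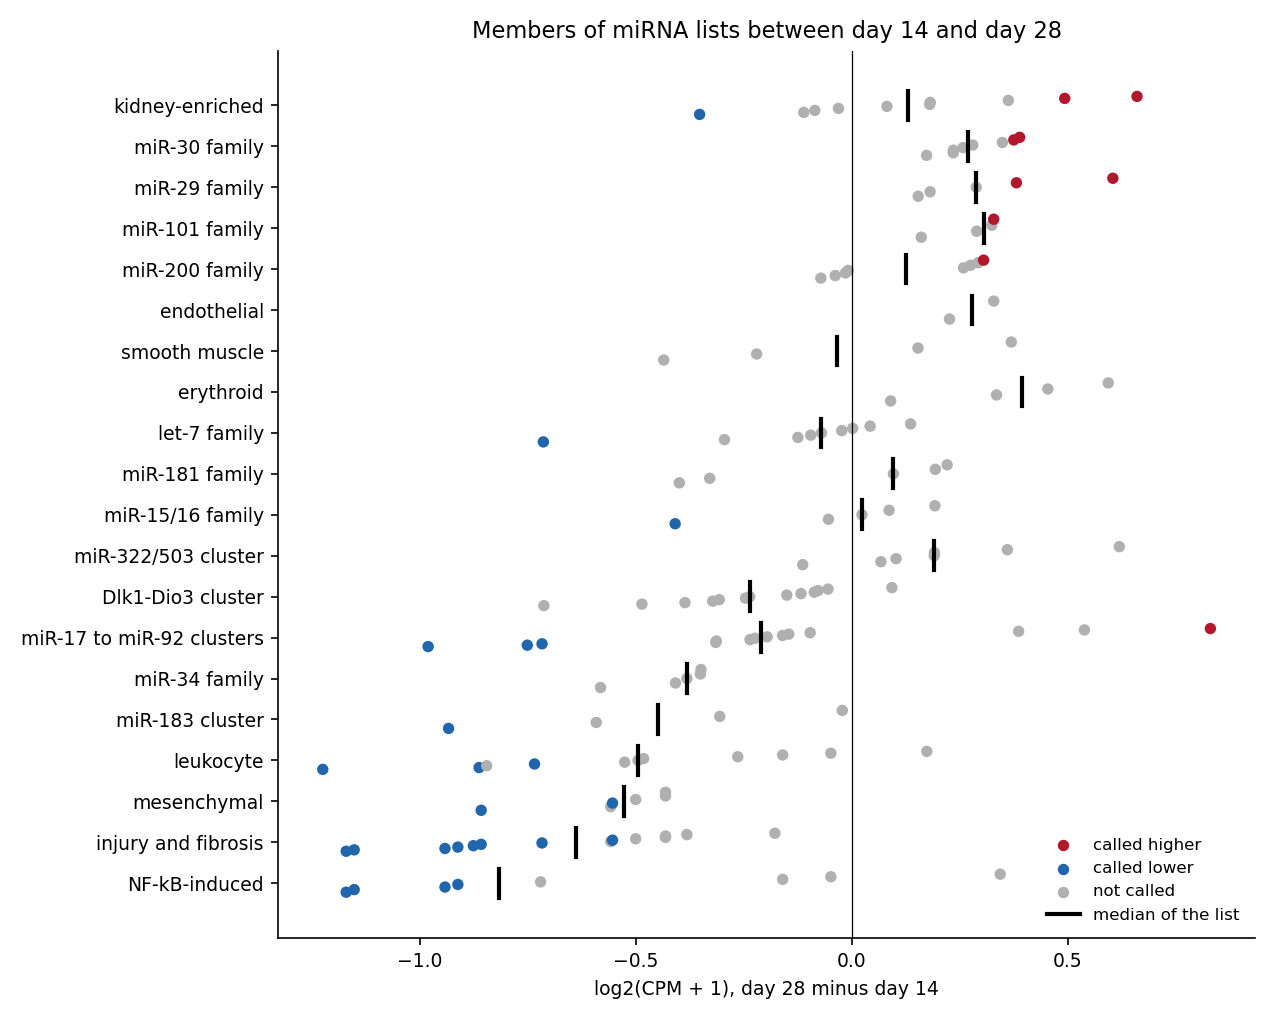
Change from day 14 to day 28 (horizontal axis, log2(CPM + 1), day 28 minus day 14) of the tested members (points) of 20 miRNA lists, with called members in red (higher) and blue (lower), and the median of each list as a black bar. All 14 injury and fibrosis miRNAs lie below 0 and all 8 listed members of the miR-30 family above it.

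The summed share of the most abundant miRNAs moved by little, although 4 of the 10 were called (miR-21-5p lower, and miR-22-3p, miR-192-5p and miR-30a-5p higher). Of all tested miRNAs, 7.66% were called lower and 4.64% higher. The 10 most abundant miRNAs held 71.7% ± 0.684 of miRNA reads at day 14 and 73.1% ± 0.63 at day 28 (mean ± SD, n = 3). miR-10a-5p and miR-10b-5p, homeobox-cluster miRNAs that mark the kidney among organs, together held 31.0% ± 1.81 and 29.6% ± 0.862. Neither passed the test, with changes of -0.03 and 0.18 (adjusted p = 0.903 and 0.419), and -0.12 and 0.05 without replicate 3 of day 14. Of the other abundant miRNAs, miR-26a-5p, miR-27b-3p and miR-181a-5p had values of 0.25, 0.22 and 0.22 and did not pass. The 20 called rises went from 24.3% ± 1.92 of reads to 29.5% ± 1.44, and the 33 called falls from 5.55% ± 1.93 to 2.64% ± 0.373, which describes miRNAs chosen by this contrast. At day 0 the shares of the same sets were 36.6% ± 1.07 and 1.8% ± 0.179.

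Levels at day 28 were next set against day 0, for which the labels do not say whether the mice had been injected, with 56 of 431 miRNAs called (13%), 48 higher (11.1%) and 8 lower (1.86%). This comparison uses the same day 28 libraries as the one above. Some of the miRNAs that fell were still above day 0. miR-146b-5p stood at 102 ± 22.2 CPM at day 0 and 322 ± 48.3 CPM at day 28 (mean ± SD, n = 3), a log2 difference of 1.65 (adjusted p = 8.17e-06). For miR-199a-5p, miR-142-3p, miR-214-3p and miR-132-3p the differences were 1.20, 1.12, 1.09 and 1.05, and for miR-21-5p it was 0.62 (adjusted p = 0.00778). Others were not called against day 0, among them miR-19a-3p (0.52, adjusted p = 0.113) and miR-21-3p (0.26, adjusted p = 0.444).

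A second set stood above day 0 without a call between day 14 and day 28. miR-31-5p had 48.9 ± 10.9 CPM at day 0, 154 ± 48.2 CPM at day 14 and 131 ± 10.7 CPM at day 28, a difference of 1.43 from day 0 (adjusted p = 2.02e-05). The leukocyte miRNA miR-142-5p had 601 ± 80.0, 1657 ± 193 and 1374 ± 61.9 CPM at the same days, a difference of 1.20 from day 0 (adjusted p = 8.17e-06). miR-181c-5p and miR-146a-5p differed from day 0 by 0.81 and 0.88. For these miRNAs a missed threshold between day 14 and day 28 does not show that the level was constant, and the 95% interval of miR-142-5p for that step ran from -0.57 to 0.04.

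Of the rises, miR-101a-3p remained below day 0 by a called difference of -0.30 (adjusted p = 0.0343). miR-192-5p was at -0.35 and did not pass (adjusted p = 0.0564), and miR-30a-5p was at -0.04 (adjusted p = 0.867). miR-33-5p, encoded in the sterol regulator gene Srebf2, and miR-193-3p were lower than at day 0 by 0.74 and 0.73 on the log2 scale (adjusted p = 0.00461 and 0.0118) and were not called between day 14 and day 28.

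Whether the step from day 14 to day 28 differed from the step from day 7 to day 14 was tested as a difference of the 2 changes in the same limma fit. In this test 0 of 431 miRNAs passed (0%), 31 had an unadjusted p under 0.05, and the smallest adjusted p was 0.0819, for miR-1199-5p. edgeR called 0 and DESeq2 called 1, also miR-1199-5p (adjusted p = 0.026). The limma fit called miR-1199-5p without replicate 1 of day 7 (adjusted p = 0.0322) or without replicate 1 of day 28 (adjusted p = 0.0359). The day 14 libraries enter both steps with opposite signs, so a high or low library at day 14 moves the 2 steps apart. For miR-1199-5p the levels were 25.7 ± 3.75, 17.2 ± 2.27 and 33.4 ± 5.58 CPM at days 7, 14 and 28, and the difference of steps was 1.46 (SE 0.32). For miR-146b-5p it was -1.28 (adjusted p = 0.364, and 0.0322 without replicate 1 of day 7), with 672 ± 210.4 CPM at day 7 before the day 14 and day 28 levels given above. For miR-21-5p, which had 76341 ± 10491 CPM at day 7, the difference of steps was -0.14 (adjusted p = 0.901, 95% interval -0.69 to 0.42). In the limma fit over all 21 libraries no miRNA was thus shown to move in a way particular to the later step.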

How the data were processed

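Small RNA libraries (Illumina TruSeq, per the labels' protocols) of 21 mouse kidney samples, 3 per day on 7 days, were analysed from 1 table of 1125 miRNAs. The deposited values are CPM: each column sums to the same total, although the file calls its values counts. CASAVA 1.8 and build mm9 are named per the submitters' processing notes; aligner, counter and miRBase version: not given in the sources used here. Whole reads were recovered from the CPM steps for 100% of values (tolerance 0.05 of a read) and used for edgeR 4.0.16 filterByExpr (minimum count 10), TMM factors and the edgeR and DESeq2 1.42.0 alternatives, which called 50 and 65 miRNAs at day 28 against day 14. A count of 0 allows 3 reads, 0.525 to 0.963 CPM in the 6 libraries, counting error only.

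The main test was limma 3.58.1 (limma-trend, R 4.3.3) on log2(CPM + 1), in 1 fit over 21 libraries with a mean per day, with Benjamini-Hochberg adjustment over 431 miRNAs and a threshold of 0.05. The scripts were tested on simulated data. Changes on this scale understate those of scarce miRNAs. The miRNAs named are, of the called miRNAs averaging 10 CPM or more without overlap between days 14 and 28, the 12 that rose and the 12 that fell most, then the 10 most abundant, and members of 24 lists; other called miRNAs, and neighbours or seed partners of named ones, were added after their values were seen. Members and lists were chosen with earlier results of these data known. Sequences are from RefSeq (GRCm38.p6); 337 of 431 tested miRNAs had one that was used, 42 of the 53 called. Alternatives covered scaling, filter, pseudocount, tool, replicate block and each library of the days compared left out.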

Additional observations from a re-analysis of the deposited data

How the results depend on the processing

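All 20 rises and 33 falls from day 14 to day 28 kept their direction in the 20 alternatives run, where tested, and 10 kept their call in all of them (miR-1199-5p as a rise; miR-132-3p, miR-146b-5p, miR-19a-3p, miR-21-5p, miR-375-3p, miR-130b-3p, miR-212-5p, miR-223-5p and miR-677-5p as falls, the last 3 not being tested where a mean of 10 CPM was required). The main count was 53 calls, 20 higher and 33 lower. With upper-quartile factors 3 were higher, and with library totals 5 were higher and 51 lower. Without a low-count filter 19 were called, 4 higher and 15 lower, with 875 miRNAs in the adjustment and TMM factors taken from them; with the factors of the filtered miRNAs kept (chosen after seeing the data) 38 were called, 11 higher and 27 lower. A fit to the days compared alone called 25, 3 of them higher, with fewer libraries behind the spread. Leaving out 1 library at a time gave 12 to 68 calls, 1 to 29 higher and 11 to 39 lower; the lowest counts were without replicate 2 of day 28 (12) and replicate 3 of day 14 (13), and without replicate 1 of day 28 it was 35, 9 of them higher. Against day 0 the count of 56 became 37 to 57 with 1 library left out. The difference of steps, with 0 calls, gave 1 without a filter (with either set of TMM factors), with DESeq2 and with TMM factors from all rows (the last chosen after seeing the data), and 0 to 2 with 1 library left out, 2 without replicate 1 of day 7 (miR-1199-5p and miR-146b-5p) and 1 without replicate 1 of day 28 (miR-1199-5p). Both calls without a filter were miR-488-5p, which the filter leaves out, and the other single calls were miR-1199-5p. Uncalled values that changed sign were miR-10a-5p (-0.117 to 0.017 with 1 library left out, 0.0078 and 0.017 without replicates 1 and 2 of day 14 and 0.0012 without replicate 3 of day 28), miR-31-5p (-0.461 to 0.0067, the latter without replicate 3 of day 14), miR-30c-5p (-0.070 to 0.296, the former without the same library) and miR-103-3p (-0.039 with upper-quartile factors, -0.077 with library totals). The cause of these changes was not tested.

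Replicate numbers do not show a pairing: deviations of same-numbered libraries of days 14 and 28 correlated at -0.106, 0.119 and 0.113 over 431 miRNAs, and not every library correlated best with its own number. A fit with the replicate number as a block called 52 miRNAs, 49 of them among the 53, 54 against day 0 and 0 for the difference of steps. Below about 1 CPM a level rests on a few reads.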
